A study of Homo sapiens with 12 samples.

Results

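The aldehyde dehydrogenases are enzymes that oxidise aldehydes to carboxylic acids. ALDH1A3 and 9 other members of the family (ALDH1A1, ALDH1B1, ALDH2, ALDH3A1, ALDH3A2, ALDH3B1, ALDH4A1, ALDH7A1 and ALDH9A1) were followed on expression arrays of lung carcinoma cells. All gene probes whose RefSeq accession belongs to these 10 genes were taken, and probe A_24_P917280, which the study's list of deregulated probes assigns to ALDH1A3, was added. The 10 genes are among 16557 with a named probe on the array, and their 15 probes among 41000 gene probes. The added probe was chosen because its difference between the conditions was already known to be large, so its values, and the calls of all 15 probes in the same contrast, are given as a description without a test.

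The cells were a H358/Tet-On/SRSF2 clone, grown from H358, a human lung adenocarcinoma line. It holds SRSF2, a serine/arginine-rich splicing factor, behind a Tet-responsive promoter. RNA from 6 samples labelled control, whose treatment is given as none, and 6 samples labelled SRSF2 over-expression, induced for 24 hours with 1 µg/mL doxycycline, was hybridised to 12 one-colour Agilent Whole Human Genome arrays, and both conditions carry the transgene. A single clone was used, and doxycycline and SRSF2 induction cannot be told apart in this design. Each of the 3 slides holds 2 arrays of either condition. The study made 3 labelings per condition and hybridised 2 arrays from each, so the 6 arrays of a condition include technical repeats. The spreads over 6 arrays and the main comparison below treat them as independent.

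The retinaldehyde dehydrogenases ALDH1A1 and ALDH1A3 make retinoic acid, the ligand of the nuclear retinoic acid receptors, and their activity is widely used to sort tumour cells with stem-like properties, in lung carcinoma among others. ALDH2 and ALDH1B1 are mitochondrial enzymes that clear acetaldehyde and products of lipid peroxidation. The ALDH3 enzymes oxidise fatty and aromatic aldehydes, and ALDH4A1, ALDH7A1 and ALDH9A1 act in the breakdown of proline, the breakdown of lysine and the synthesis of carnitine.

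Signals below are log2 processed intensities minus that of the array's 75th percentile over gene probes, so that 0 is the signal of that percentile and each unit is a doubling. A probe was tested when it was well above background, a flag of the scanner software, in either condition on 5 or more of its 6 arrays. This filter kept 13 of the 15 probes, from 8 genes. The probes of ALDH1A1 and ALDH3A1 did not. The share of gene spots well above background ran from 54.2% to 67.8% on the control arrays and from 55.2% to 68.0% on those labelled SRSF2 over-expression, and the 75th percentile of the signal from 893 to 1233 and from 1120 to 1256. No gene spot was saturated.

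The SRSF2 probe A_23_P77776 went against the label. Control arrays had a signal of 3.92 ± 0.10 (SD, n = 6) and the others one of 2.47 ± 0.10 (SD, n = 6), a difference of -1.46 (standard error 0.06, limma adjusted p = 1.68e-09). The study, by contrast, reports more SRSF2 mRNA in the induced cells by quantitative RT-PCR, and it examined the protein by western blot. Why this probe differs was not tested, and all directions below are those of the arrays as labelled. The cells carried epithelial markers. All 8 probes passed the filter, with mean control signals of 0.01 or more. Of these, 5 were well above background on all 12 arrays, where an array without a value for a probe counted as not. The sum of the 5 probes with a value on every array was 577 to 646 times the 75th percentile on the control arrays. It was 469 to 531 on the others. KRT19, a keratin of simple epithelia, was the brightest of the 8 probes (mean control signal of 8.68) and weighed most in this sum. It differed by -0.50, EPCAM, an epithelial adhesion molecule, by 0.21, and probe A_24_P67395 of the keratin gene KRT8 by 0.50. The differences thus had both signs. Of the 8 probes, 3 passed a limma adjusted p of 0.05, 2 of them higher with the label SRSF2 over-expression and 1 lower. Over all tested probes 57.7% passed it, 29.7% higher and 28.0% lower. The KRT8 probe at 0.50 did not pass it (limma adjusted p = 0.0547). Both probes of the lung lineage factor NKX2-1 were well above background on every array, whereas the surfactant gene SFTPB reached it on 2 control arrays. Over all 10 lung epithelial probes, 3 were never well above background and the summed level was 5.48 to 6.37 against 6.30 to 8.20. No fibroblast probe of 8 was well above background on any array. Among the other markers, 1 of 4 endothelial probes and 2 of 5 leukocyte probes were well above background on every array, with summed levels of 0.20 to 0.28 against 0.18 to 0.32 and of 0.75 to 0.90 against 0.72 to 0.88. The part of these markers in the results was not tested, and in bulk RNA fewer cells of a type and less RNA per cell cannot be told apart.

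ALDH1A3 and ALDH1B1 were the genes with a probe at least 2-fold apart between the conditions, and the 250 bases before their annotated transcription starts are shown for that reason, from RefSeq on build GRCh38.p14. The ALDH1A3 sequence lies at chr15:100879581-100879830 on the forward strand, and the ALDH1B1 sequence at chr9:38392452-38392701, also on the forward strand. Capitals mark the letters of the GC box (GGGCGG) and of the CCAAT box (CCAAT) on either strand.
ALDH1A3: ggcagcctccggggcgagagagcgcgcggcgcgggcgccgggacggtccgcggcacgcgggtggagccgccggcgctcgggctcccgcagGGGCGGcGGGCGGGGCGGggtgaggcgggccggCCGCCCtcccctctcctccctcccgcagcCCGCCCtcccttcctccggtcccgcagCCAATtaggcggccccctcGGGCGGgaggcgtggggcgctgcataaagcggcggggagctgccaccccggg
ALDH1B1: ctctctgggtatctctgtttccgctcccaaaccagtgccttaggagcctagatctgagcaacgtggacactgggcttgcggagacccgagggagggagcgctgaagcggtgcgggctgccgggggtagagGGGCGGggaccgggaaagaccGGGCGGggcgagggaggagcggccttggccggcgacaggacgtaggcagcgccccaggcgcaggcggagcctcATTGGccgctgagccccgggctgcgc
The ALDH1A3 window held 6 GGGCGG matches, some of them overlapping, and 1 CCAAT match, and 82.4% of its bases were G or C. The ALDH1B1 window held 2 GGGCGG matches and 1 CCAAT match, with 70.4% G or C.

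Promoter windows were found for 8 of the 10 genes, all but ALDH2 and ALDH3A1. GGGCGG occurred in 5 of these 8 and in 42.6% of all 35116 promoter windows of the same length, and CCAAT in 4 of the 8 and in 32.0% of all. TATAAA, the core of the TATA box, and AGGTCA, the half-site bound by retinoic acid and other nuclear receptors, were in none of the 8 windows, against 3763 and 4242 of all 35116. Both strands were searched, and a match or its absence describes letters only.

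ALDH1A3 was read by the probe pair A_24_P917280 and A_23_P205959, which went in opposite directions. Probe A_24_P917280 had signals of -5.47, -6.20, -6.01, -6.71, -6.80 and -6.79 on control arrays 1 to 6. With the label SRSF2 over-expression, arrays 1 to 6 had signals of -2.43, -2.46, -2.40, -2.57, -2.38 and -2.34. Every array labelled SRSF2 over-expression therefore lay above every control array, and the spread was 0.54 (SD, n = 6) in the dim condition against 0.08 (SD, n = 6) in the bright one. On the linear scale the processed intensities were 9.27 to 20.8 and 179 to 208.

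The probe was not well above background on any control array and was so on all 6 of the others, which makes the control level an upper limit. For a bound, each control array was raised to the lowest signal well above background on it (mean of -4.80 over the 6 arrays), or to the probe's own signal where that was higher. On this background-subtracted signal the probe was then at least 5.16-fold higher on the arrays labelled SRSF2 over-expression. As measured, the difference of 3.90 (standard error 0.20) amounted to 3.39, 3.87 and 4.44 within slides 1 to 3. Under other background handling the difference was much smaller and fell below the bound. It was 1.85 without background subtraction and 0.72 with the normexp correction, which left it short of the adjusted threshold. The first setting keeps the background and the second adds an offset of 50, and either shrinks the difference of a dim probe by construction. These values are therefore no check of the bound, and how much of the drop this accounts for was not tested. The probe was not tested under a stricter filter that asks for 9 arrays well above background. The file gives this probe an mRNA accession that the RefSeq gene table does not hold, so its assignment to ALDH1A3 rests on the study's list alone.

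Probe A_23_P205959, which carries a RefSeq accession of ALDH1A3, was well above background on each of the 12 arrays. The signals were 0.78, 0.73, 0.69, 0.68, 0.75 and 0.77 on control arrays 1 to 6. With the label SRSF2 over-expression they were 0.47, 0.33, 0.23, 0.25, 0.55 and 0.55. The control arrays all lay above the others, and the arrays labelled SRSF2 over-expression were lowest on slide 2. The difference was -0.34 (standard error 0.07), with -0.36, -0.44 and -0.21 on slides 1 to 3. Scaled on spike-in controls, the difference was -0.13 and no longer passed the adjusted threshold. That scaling moved the median difference of all tested probes to 0.22. Relative to the median of all probes the probe differed by -0.35 with or without that scaling. This equality is fixed, since the scaling shifts all probes of an array alike, so it is no separate check. With spike-in scaling and slide 1 left out, the difference was -0.30, still short of the adjusted threshold, and the median was 0.03.

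The change of the ALDH1A3 probe A_24_P917280 exceeded that of A_23_P205959 by 4.24. The log ratio of the pair within an array separated the conditions on all 12 arrays, which their opposite directions without overlap already fix. The size of the gap rests on control signals of A_24_P917280 that were not well above background. With normexp the differences of A_24_P917280 and A_23_P205959 were 0.72 and -0.24. As measured, the sequences the probes bind changed unequally, which says nothing of the level of either against the other.

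**Figure D1:**
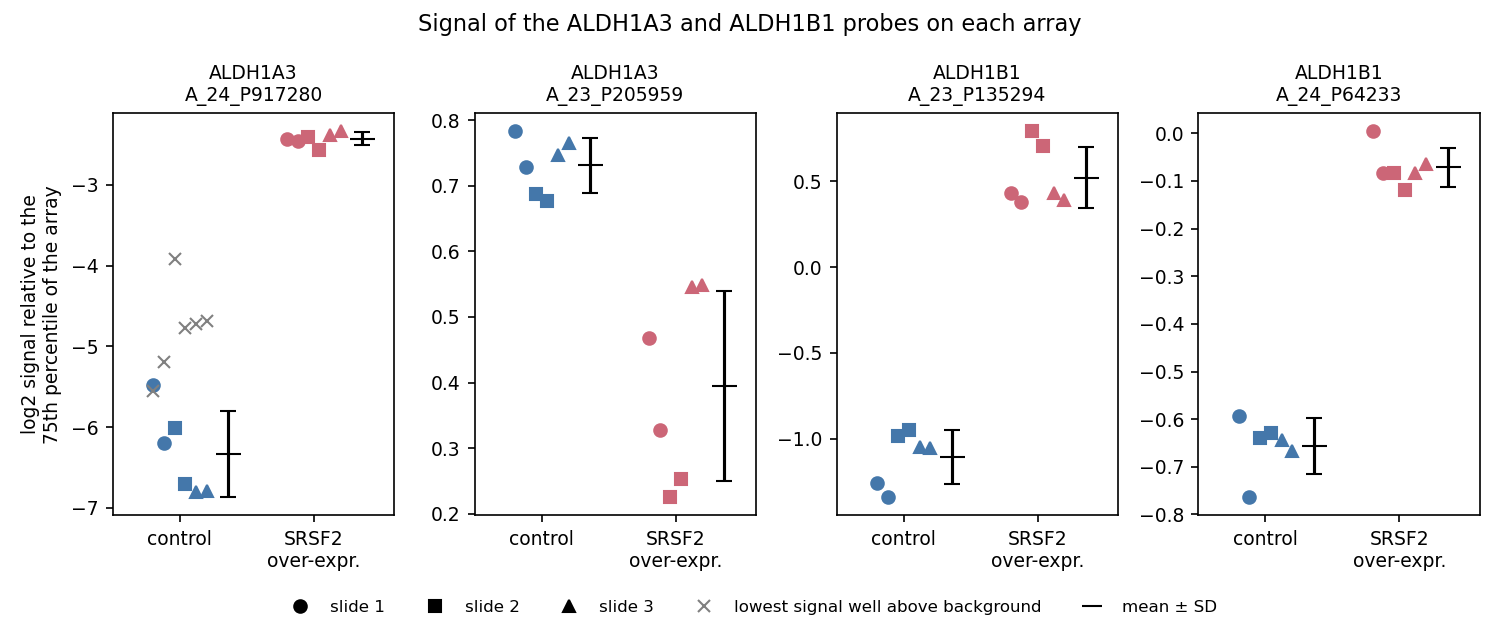
Signal of the ALDH1A3 and ALDH1B1 probes on each array, in log2 units above or below the array's 75th percentile on the vertical axes, which differ between panels. Points are single arrays, with shapes for the slide, bars give the mean ± SD of 6 arrays, and crosses mark the lowest signal well above background on each control array. In all 4 panels the conditions do not overlap. A_24_P917280 was not well above background on any control array, and A_23_P205959 lay lower on the arrays labelled SRSF2 over-expression.

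ALDH1B1, the mitochondrial relative of ALDH2, was higher on the arrays labelled SRSF2 over-expression with both of its probes. Probe A_23_P135294 had signals of -1.26, -1.34, -0.98, -0.95, -1.05 and -1.06 on control arrays 1 to 6 and of 0.43, 0.38, 0.79, 0.71, 0.43 and 0.39 on the others. The conditions were more than 1 unit apart at their nearest arrays. The difference was 1.63 (standard error 0.09), a 3.09-fold higher signal, and it amounted to 1.70, 1.72 and 1.46 within slides 1 to 3. Over all 18 alternative settings it ran from 1.26 with normexp to 1.83 with spike-in scaling and passed the adjusted threshold in each.

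Probe A_24_P64233 of ALDH1B1 went from -0.64 (median, range -0.76 to -0.59) on the control arrays to -0.08 (range -0.12 to 0.00) on the arrays labelled SRSF2 over-expression. Its difference was 0.58 (standard error 0.04), and the arrays did not overlap. With normexp it was 0.35 and did not pass the adjusted threshold. The change of this probe was smaller than that of A_23_P135294 by 1.04, and the log ratio of the pair separated the conditions on all 12 arrays.

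ALDH2, the main enzyme of acetaldehyde clearance, did not differ beyond the spread between arrays with either probe. Probe A_23_P36745 had a median of -0.14 (range -0.39 to -0.05) on the control arrays and of -0.11 (range -0.26 to -0.01) on the others, a difference of 0.04 (standard error 0.07). Probe A_23_P36753 had medians of -2.73 in both conditions, with ranges of -2.85 to -2.68 and -2.96 to -2.51, and a difference of 0.01 (standard error 0.07). The arrays of the conditions overlapped for both probes, and within slides the differences had both signs.

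ALDH1A1, which like ALDH1A3 oxidises retinaldehyde, was not well above background on any of the 12 arrays with its probe A_23_P83098. Its signals had a median of -6.89 (range -7.27 to -5.60) on the control arrays and of -7.12 (range -7.68 to -6.15) on the others, so no fold is given. ALDH3A1, an enzyme of aromatic and medium-chain aldehydes that is abundant in the cornea, was well above background with probe A_23_P207213 on 1 control array and 2 arrays labelled SRSF2 over-expression. Its medians were -5.25 (range -6.61 to -4.26) and -5.08 (range -5.51 to -4.48), and the conditions overlapped.

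ALDH3A2, the fatty aldehyde dehydrogenase that is mutated in Sjögren-Larsson syndrome, had a median of -0.57 (range -0.76 to -0.37) on the control arrays and of -0.53 (range -0.69 to -0.49) on the others with probe A_23_P129896. The difference was 0.01 (standard error 0.08). ALDH3B1, which oxidises medium- and long-chain aldehydes, was read by probe A_24_P218688, with a median of -0.60 (range -0.83 to -0.19) against -0.67 (range -0.89 to 0.00) and a difference of 0.05 (standard error 0.18). Its spread within conditions, 0.25 and 0.40 (SD, n = 6), followed the slides. The arrays of slide 2 were the highest of both conditions, at -0.30 and -0.19 among the controls and at 0.00 on both of the others.

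**Figure D2:**
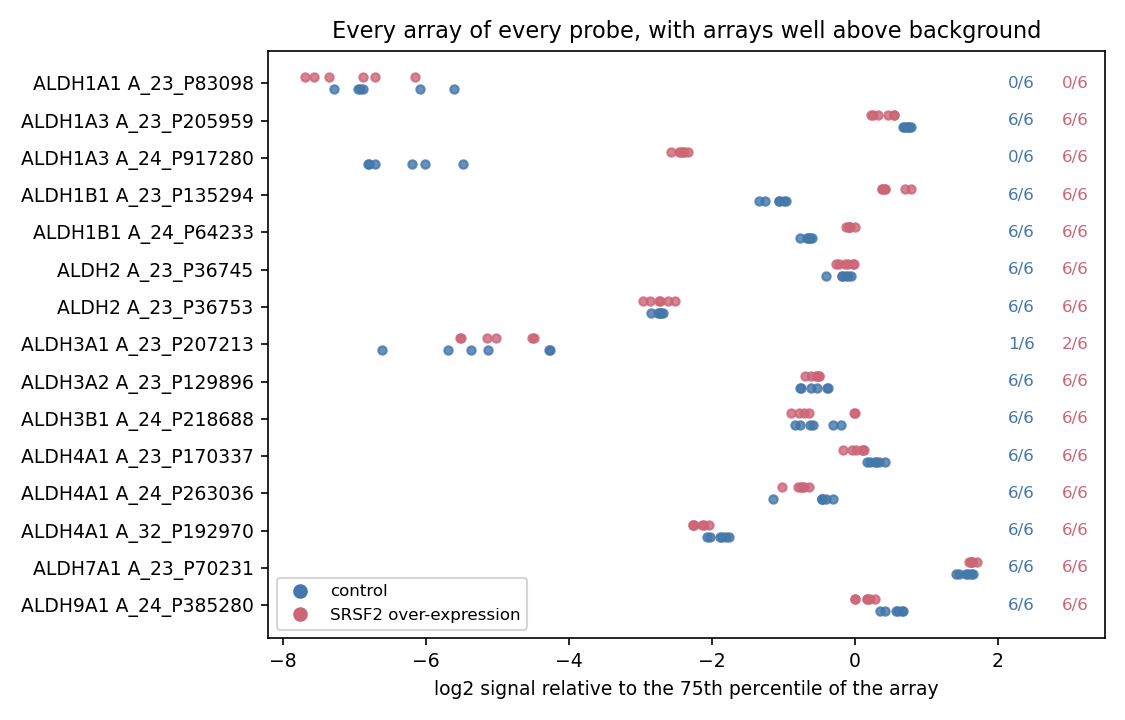
Signal of all 15 probes on each of the 12 arrays, in log2 units above or below the array's 75th percentile on the horizontal axis, with the number of arrays of 6 on which the probe was well above background at the right. Control arrays and arrays labelled SRSF2 over-expression are drawn in separate colours. The ALDH1A1 probe was well above background on 0 arrays of either condition and A_24_P917280 on 0 and 6, and the order of probes is by name because levels of different probes are not comparable.

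The enzymes of amino acid and carnitine metabolism were lower or differed little. ALDH9A1, which makes a precursor of carnitine and can also oxidise the aldehyde that leads to the transmitter GABA, had signals of 0.67, 0.68, 0.58, 0.60, 0.43 and 0.36 on control arrays 1 to 6 with probe A_24_P385280. The signals were 0.17, 0.18, 0.21, 0.29, 0.01 and 0.01 on the others, and the lowest control arrays, both on slide 3, stayed above all of these. The difference was -0.41 (standard error 0.07), a 1.33-fold lower signal. It was -0.20 with spike-in scaling and did not pass the adjusted threshold there. Relative to the median of all probes it was -0.42 with or without that scaling, which is no separate check. With spike-in scaling and slide 1 left out, the difference was -0.34, again short of the threshold.

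ALDH4A1, the proline breakdown enzyme that forms glutamate, had 3 probes with negative differences. Probe A_23_P170337 went from a median of 0.30 (range 0.18 to 0.42) to 0.06 (range -0.17 to 0.13), a difference of -0.26 (standard error 0.06) with no overlap of the conditions. Probe A_32_P192970 went from -1.86 (range -2.06 to -1.76) to -2.19 (range -2.26 to -2.04), a difference of -0.28 (standard error 0.07), with overlapping ranges. Probe A_24_P263036 differed by -0.24 (standard error 0.13) and did not pass the adjusted threshold. Control array 2 stood at -1.14 for this probe, below the other control arrays (-0.46 to -0.30). With slide 1 left out its difference was -0.38 and passed the threshold. The log ratios between the ALDH4A1 probes did not separate the conditions. With spike-in scaling the differences of A_23_P170337, A_32_P192970 and A_24_P263036 were -0.06, -0.08 and -0.03. Relative to the median of all probes they were -0.27, -0.29 and -0.25 with or without that scaling, which is no separate check. With spike-in scaling and slide 1 left out, the differences were -0.23, -0.28 and -0.36 in the same order, none past the threshold.

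ALDH7A1, the lysine breakdown enzyme whose loss causes pyridoxine-dependent epilepsy, had a median of 1.57 (range 1.42 to 1.65) on the control arrays and of 1.64 (range 1.61 to 1.72) on the others with probe A_23_P70231. The difference of 0.10 (standard error 0.05) did not pass the adjusted threshold with 6 arrays against 6. It passed it with slide as a block and with quantile normalization, where it was 0.10 and 0.13.

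**Figure D3:**
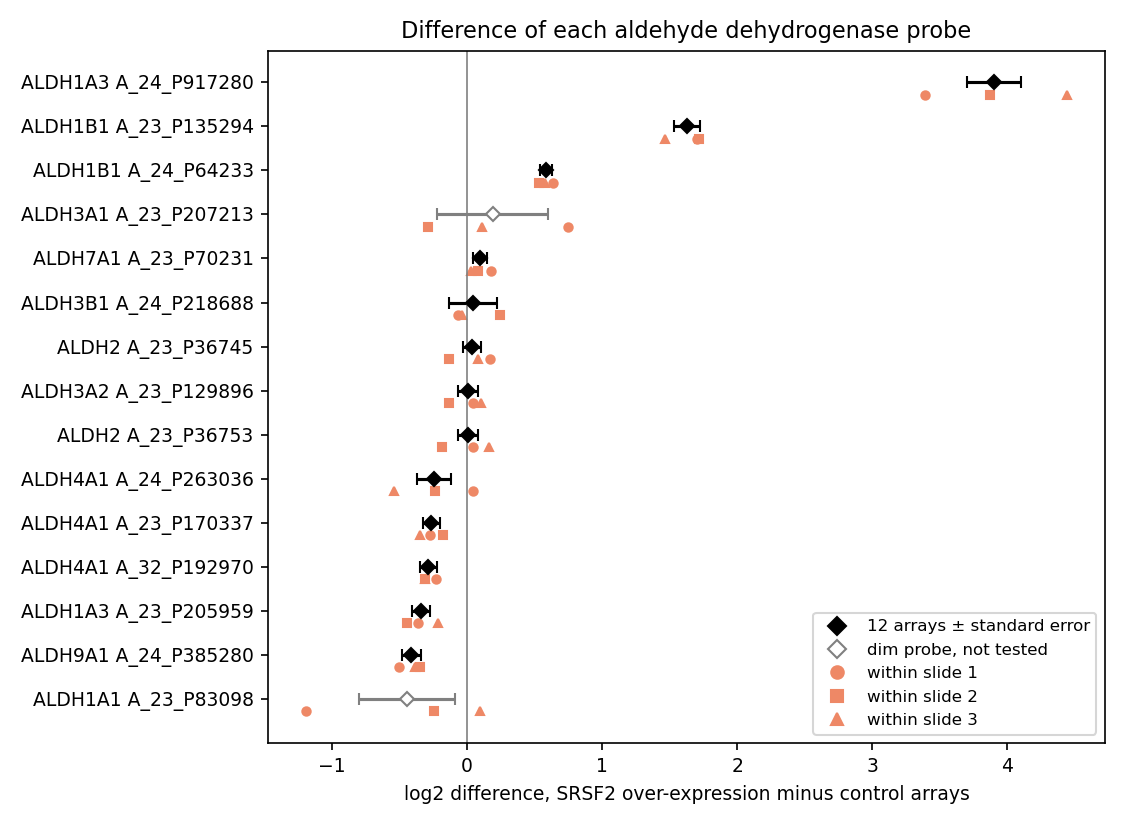
Log2 difference of each of the 15 probes, SRSF2 over-expression minus control as labelled, with the standard error (horizontal bars). Black diamonds are tested probes, open diamonds dim probes that were not tested, and the smaller symbols below them the differences within each slide. Both ALDH1B1 probes lie above 0 and the ALDH9A1 probe below 0 on all 3 slides, whereas ALDH2 and ALDH3A2 have slides on either side of 0.

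At the study's threshold of 2-fold and an adjusted p of at most 0.05 (limma, Benjamini-Hochberg adjustment over 24330 probes), 2 of the 13 tested probes were called, ALDH1A3 A_24_P917280 and ALDH1B1 A_23_P135294, both higher on the arrays labelled SRSF2 over-expression. Of all tested probes 7.00% were called at this threshold, 3.68% higher and 3.31% lower. At the adjusted p alone, 7 of the 13 were past the threshold, 3 higher and 4 lower, against 57.7% of all probes (29.7% higher and 28.0% lower). The conditions did not overlap in 6 of the 13, against 40.2% of all probes (21.2% higher and 18.9% lower). The median difference over the 13 was 0.01, and it was 0.01 over all tested probes. The call of A_24_P917280 was fixed in advance, since the probe was added for its known difference. It also passed the filter only through the arrays labelled SRSF2 over-expression. Since the contrast itself was known when the probes were chosen, nothing is read from these counts. They depended on the scaling, since 3 of the 13 were past the adjusted p with spike-in scaling, and on the background correction, since 1 was with normexp.

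**Figure D4:**
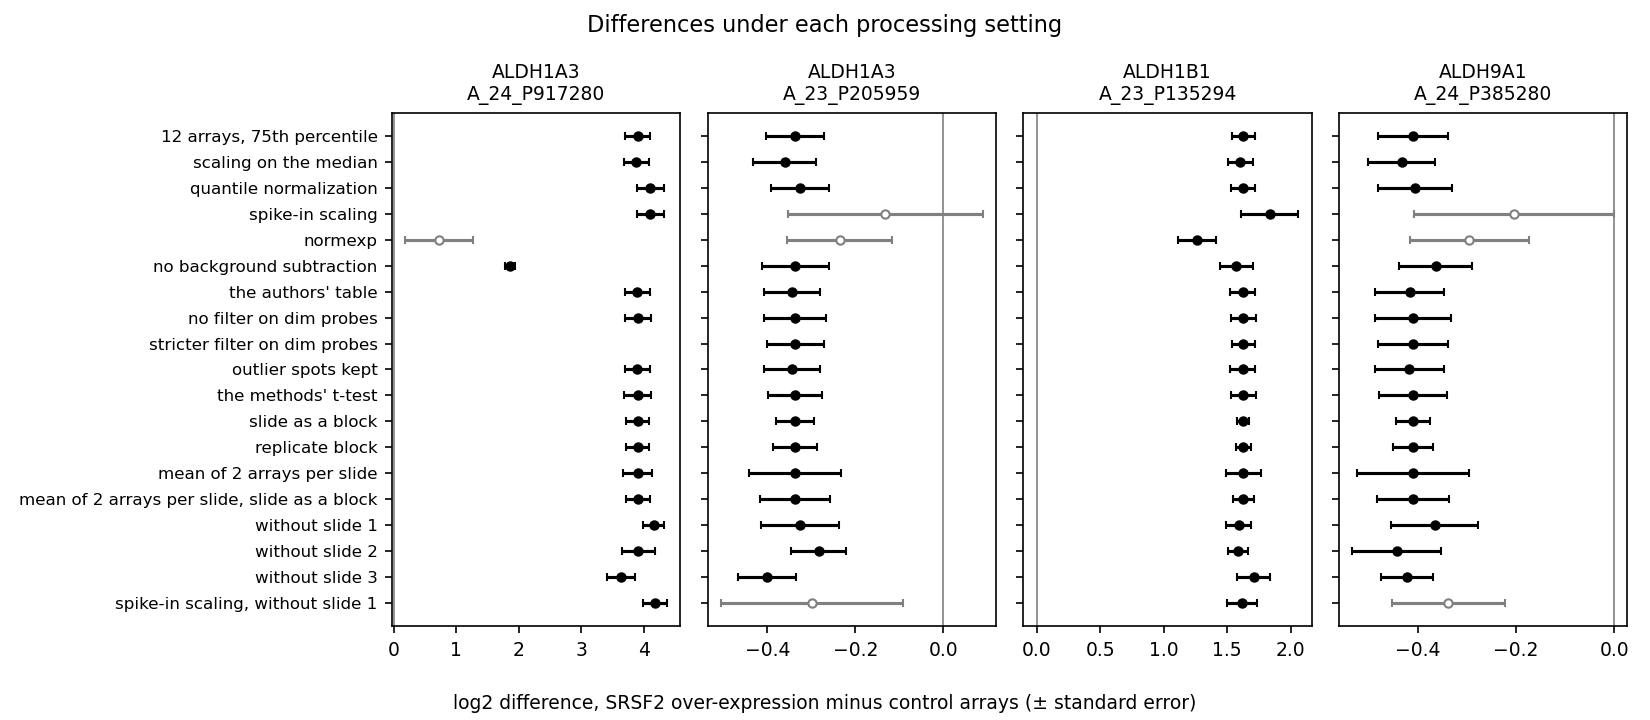
Log2 difference (horizontal axes, ± standard error) of the ALDH1A3 probes, ALDH1B1 A_23_P135294 and ALDH9A1 A_24_P385280 under the reported setting (top) and each alternative. Filled points are past an adjusted p of 0.05 and open points are not, and a missing point means that the probe was not tested. No difference changes its sign, A_24_P917280 runs from 0.72 to 4.18 over the alternatives, and the negative differences of A_23_P205959 and ALDH9A1 are open with spike-in scaling and normexp.

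The probes whose signals followed ALDH1A3 A_24_P917280 most closely over the 12 arrays, 1 probe per named gene, were those of CALD1 (Pearson r = 0.992), ZNF562 (0.991), ZNF219 (0.991), MRPL45 (0.990) and ADAMTS13 (0.989). All 5 were well above background on every array and were higher on the arrays labelled SRSF2 over-expression, by 0.80 (CALD1, the actin-binding caldesmon), 2.80 (ZNF562, a zinc finger protein), 0.73 (ZNF219, a zinc finger transcription factor), 1.03 (MRPL45, a mitochondrial ribosomal protein) and 1.64 (ADAMTS13, the protease that cleaves von Willebrand factor). These correlations describe 12 arrays that share the step between the conditions.

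The other aldehyde dehydrogenase genes were represented by 12 probes of 7 genes, of which 7 probes were tested and 3 passed the adjusted p (limma), all higher with SRSF2 over-expression as labelled, against 57.7% of all probes (29.7% higher and 28.0% lower). The median difference was 0.04, against 0.01 for all probes. ALDH5A1, which oxidises succinic semialdehyde in the breakdown of GABA, rose with probe A_24_P115007 by 0.22 (standard error 0.05, limma adjusted p = 0.00286). It passed the threshold in 14 of 18 alternatives and differed by 0.07 with normexp, where it did not. Its probe A_24_P3761, named after its values were seen, differed by 0.83 (standard error 0.29, limma adjusted p = 0.0270). Array 6 labelled SRSF2 over-expression stood at -0.66 for this probe and the other 5 at -2.63 to -2.33, and without slide 3, which holds that array, the difference was 0.49 and still passed the threshold (limma adjusted p = 0.0124). Without slide 1 or slide 2 it was 1.01 and 0.99 and no longer passed it (limma adjusted p = 0.0790 and 0.0586), nor did it with normexp, where it was 0.07.

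ALDH1L1, a folate enzyme that releases formate groups as carbon dioxide, differed by 0.14 (standard error 0.05, limma adjusted p = 0.0351), with overlapping conditions, and passed the threshold in 5 of 18 alternatives. ALDH18A1, which makes the proline precursor that ALDH4A1 consumes, differed by -0.13 (standard error 0.05, limma adjusted p = 0.0521). With spike-in scaling it differed by 0.08, and by -0.09 with slide 1 also left out. ALDH8A1, an enzyme of tryptophan breakdown named after its values were seen, was well above background with both probes on 4 arrays labelled SRSF2 over-expression and on 0 control arrays, and neither probe was tested. As measured, the log2 differences of its probes A_23_P214944 and A_24_P283324 were 2.31 and 2.13. Both conditions hold signals that were not well above background, so no fold or bound is given. With normexp the differences were 0.07 and -0.05, and without background subtraction 0.76 and 0.72. ALDH1A2, the remaining retinaldehyde dehydrogenase, was well above background on too few arrays to be tested with either probe.

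In the retinoid pathway, from uptake of retinol to target genes of retinoic acid, 31 of 43 probes were tested and 21 passed the adjusted p (limma), 11 higher and 10 lower, against 57.7% of all probes. The median difference was 0.14. Of the 17 tested probes for uptake, binding and supply, 7 were higher and 4 lower. STRA6, the membrane receptor that takes up retinol, fell by 0.92 on the log2 scale (standard error 0.11, limma adjusted p = 1.78e-05). CYP26B1, which degrades retinoic acid, rose with probe A_23_P210100 by 0.55 (standard error 0.11, limma adjusted p = 0.000933), but with normexp the difference was 0.07 and did not pass the threshold. STRA6 and CYP26B1 are named after their values were seen.

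Of the 7 tested receptor probes, 1 was higher and 4 lower. RXRA, the common partner of the retinoic acid receptors, fell with probe A_23_P219176 from a median of 0.17 (range 0.05 to 0.38) to -0.68 (range -0.74 to -0.64), a difference of -0.86 (standard error 0.06, limma adjusted p = 7.76e-08). Its probe A_23_P423197 differed by -0.47 (standard error 0.15, limma adjusted p = 0.0168). The related RXRB, named with that RXRA probe after the values were seen, rose by 0.63 (standard error 0.08, limma adjusted p = 2.38e-05). Without slide 1 or slide 3 the second RXRA probe no longer passed the threshold (limma adjusted p = 0.119 and 0.0977), and it passed in 12 of 18 alternatives.

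Among 6 tested probes of retinoic acid target genes, 2 were higher and 2 lower. GPRC5A, a retinoic acid-inducible receptor with a tumour suppressor role in lung, rose with probe A_23_P36825 from a median of -0.52 (range -0.84 to -0.29) to 0.57 (range 0.31 to 0.75). Its difference of 1.08 (standard error 0.10, limma adjusted p = 1.29e-06) made it the only probe of the list called at 2-fold, and it was 0.99 and under 2-fold without slide 1. The other GPRC5A probe rose by 0.83 (standard error 0.10, limma adjusted p = 9.29e-06), but normexp gave 0.21, short of the threshold. TGM2, the tissue transglutaminase, fell with probe A_24_P923251 by 0.66 (standard error 0.07, limma adjusted p = 2.53e-06) and with A_32_P86763 by 0.59 (standard error 0.09, limma adjusted p = 0.000146). Neither passed the threshold with spike-in scaling, but with slide 1 also left out both did, at -0.62 and -0.56. GPRC5A and TGM2 probes thus went in opposite directions, and RARB and RARRES1 were too dim to be tested.

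**Figure D5:**
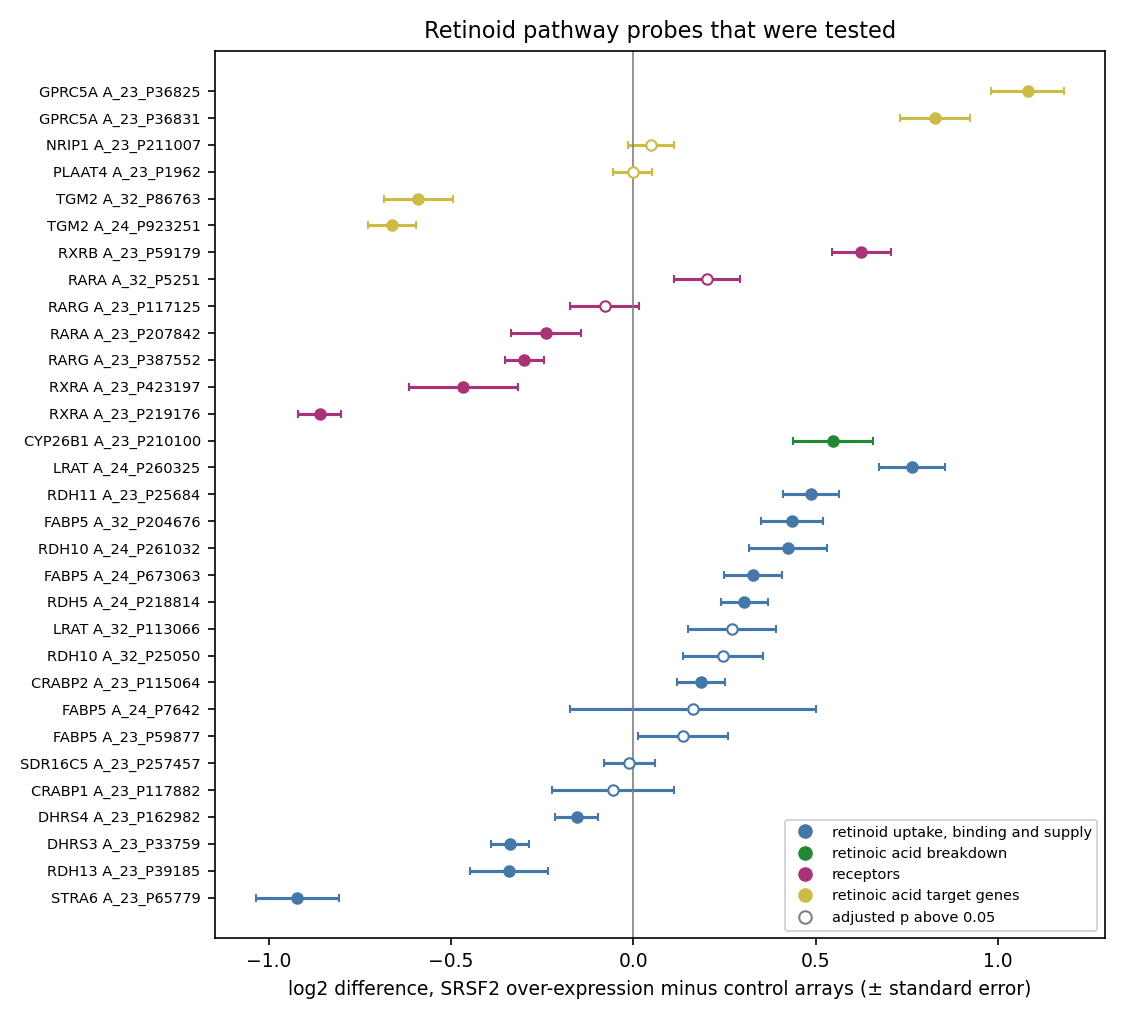
Log2 difference, SRSF2 over-expression minus control as labelled (horizontal axis, ± standard error), for the 31 tested probes of the retinoid pathway, grouped and coloured by role. Filled points are past a limma adjusted p of 0.05, 11 above 0 and 10 below 0. The GPRC5A probes lie at 1.08 and 0.83 and the lowest probe, STRA6, at -0.92.

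Of the 32 probes for alcohol and aldehyde metabolism, 20 were tested and 10 passed the adjusted p (limma), 7 higher and 3 lower, against 57.7% of all probes, with a median difference of 0.08. With spike-in scaling or normexp 1 passed it. Most of these 10 belong to the aldehyde and carbonyl reductases, with 5 higher and 3 lower of 11 tested. CBR4, a carbonyl reductase of mitochondria, rose by 0.70 (standard error 0.09, limma adjusted p = 1.56e-05). AKR7A3, an aflatoxin aldehyde reductase, fell by 0.49 (standard error 0.07, limma adjusted p = 5.87e-05), and AKR1B1, the aldose reductase, fell by 0.27 (standard error 0.05, limma adjusted p = 0.000281). The falls of AKR7A3 and AKR1B1 did not pass the threshold with spike-in scaling or normexp. The alcohol dehydrogenase genes ADH4, ADH6 and ADH7 were not well above background on any array.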

How the data were processed

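The authors deposited Feature Extraction 10.7.3.1 output for 12 arrays, in which the processed intensity of a spot is its background-subtracted signal, and a table of log2 values that follows that signal scaled on the 75th percentile and centred on each probe (correlation of 0.998 with the values used here, column medians from -0.02 to 0.01). From the processed intensities, outlier-flagged spots were left out, log2 values of a probe's spots were averaged and the array's 75th percentile was subtracted. Kept were 24330 probes that had at most 25% missing values and, in either condition, 5 or more arrays well above background. The main comparison used limma 3.58.1 (lmFit, eBayes) under R 4.3.3, with no covariate and Benjamini-Hochberg adjustment over these probes, and its threshold was 2-fold and an adjusted p of 0.05. On simulated data of 23740 probes, 95 of 100 probes changed by 1.2 (log2), 95 of 100 changed by 2 and 8 of 23540 unchanged probes passed the adjusted p. The simulated arrays were independent, unlike real arrays that share a slide, so these counts do not give the rate of false calls here.

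Probes were named through their RefSeq accessions (23958 of 25868 matched the RefSeq gene table of GRCh38.p14). Since the array files were annotated on hg18, gene positions are not given, and promoter windows are those of GRCh38.p14 (the first where a gene has 2). The members and gene lists were chosen with earlier results of these data known. Named in the text are every member probe, SRSF2, list probes called at 2-fold, the 3 genes with the lowest adjusted p in each list, and the 5 probes most correlated with A_24_P917280. Other genes are marked as named after their values were seen, except the markers and genes given only as too dim, and the other GPRC5A and TGM2 probes.

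Alternatives were median, quantile and spike-in scaling (6 spike-in probes), normexp (offset 50) and no background subtraction, both on the median spot signal because a mean column is not among those used here, the authors' table, no or a stricter filter (9 of 12 arrays), outlier spots retained, a block for slide or for replicate number, the methods' t-test, 2 arrays per slide averaged (with and without a slide block), each slide left out and a 1.5-fold threshold. Spike-in scaling without slide 1 was chosen after seeing the data. In the labels both conditions have replicate numbers 1 to 6. Deviations from the condition means correlated within a number (0.28 to 0.64) and equally between numbers that share a slide (0.33 to 0.65), but not across slides (-0.48 to -0.05), so numbers pair the arrays through the slide. The number of arrays limits the precision, and 2 of them share each labeling. With the 2 arrays of a condition on each slide averaged, 9493 probes passed the adjusted p, against 14042 as reported.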

Additional observations from a re-analysis of the deposited data

Results flagged for a closer look

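Of 66 groups of 6 arrays examined for a single array far from the others, 6 had such an array by Dixon's criterion, and chance gives about 1 in 20. Control array 2 was lowest for ALDH2 A_23_P36745, at -0.39 against -0.17 to -0.05 on the other control arrays. It was also lowest for ALDH4A1 A_24_P263036, at -1.14 against -0.46 to -0.30. The same array was highest for ALDH5A1 A_24_P115007, at -0.80 against -1.01 to -0.94. Among the arrays labelled SRSF2 over-expression, array 4 was highest for ALDH7A1 A_23_P70231, at 1.72 against 1.61 to 1.65. Array 6 was highest for ALDH5A1 A_24_P3761, at -0.66 against -2.63 to -2.33. Array 5 was lowest for ALDH8A1 A_24_P283324, at -5.30 against -4.48 to -4.25.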

How the results depend on the processing

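Normexp left 1 member probe called at 2-fold, as did the stricter filter, which does not test A_24_P917280, and with normexp that probe differed by 0.72. Past the adjusted p were 7 member probes as reported, 3 with spike-in scaling (also 3 without slide 1) and 1 with normexp. Of the other aldehyde dehydrogenase probes 3 were past it as reported, 1 with spike-in scaling (0 without slide 1), 0 with normexp, 6 with slide as a block, 1 with the mean of 2 arrays per slide, and 1 without slide 1 or without slide 2. Retinoid probes past it numbered 21 as reported, 10 with spike-in scaling (also 10 without slide 1) and 6 with normexp. For alcohol and aldehyde metabolism the counts were 10 as reported, 1 with spike-in scaling (3 without slide 1), 1 with normexp and 6 with the mean of 2 arrays per slide. ALDH1L1 reversed to -0.11 with normexp. The cause of these shifts was not tested. Over all probes, 1702 were called as reported (896 higher, 806 lower), 2017 with spike-in scaling (1583 higher, 434 lower), 798 without background subtraction and 328 with normexp, and at the adjusted p alone 14042 as reported, 6596 with spike-in scaling, 6658 with that scaling without slide 1, and 2819 with normexp. With the replicate block, which pairs arrays by number, 7 member probes, 3 of the other aldehyde dehydrogenases, 24 of the retinoid pathway and 11 of alcohol and aldehyde metabolism were past the adjusted p, so no count moved by over 1.5 times. Signal near background limits what A_24_P917280 and the ALDH8A1 probes can show.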
